A study of Mus musculus with 6 samples.

Results

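Sftpc and Sftpb encode surfactant proteins C and B, small hydrophobic proteins of the lipid film that keeps alveoli open. Their RNA 5' ends were followed in PARE libraries (parallel analysis of RNA ends) of 6 tissues of adult mice on a BALB-c background: whole lung, brain, liver, kidney, ovary and spleen, with 1 library per tissue and no treatment named in the labels. PARE joins an adaptor to polyadenylated RNAs that carry a 5' monophosphate, and each sequenced tag gives the first 20 or 21 nt of such an RNA. The Sftpc tags were those with a 5' end on the minus strand of chr14:70920001-70924000, and the Sftpb tags those on the plus strand of chr6:72254001-72266000 (mm9). Of 935685 listed tags in the series, 10713 fell in the Sftpc interval and 1757 in the Sftpb interval. Tags listed at 2 locations were left out, which kept 10440 Sftpc tags and 1718 Sftpb tags of 839877. Both intervals were chosen by their high tag counts in lung, so their levels by tissue are a description with no test. The single library per tissue allows no test between tissues. Intervals are exact 95% intervals that cover only the error of counting and not variation between animals. They treat tags as independent, but reads amplified by PCR may copy the same molecule, which would make them too narrow.

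Surfactant proteins B and C are made in alveolar type II cells, which store surfactant in lamellar bodies and secrete it. Protein B is also made in club cells of the airways and is needed to form lamellar bodies, whereas protein C is restricted to type II cells. A 5' monophosphate appears when an RNA is cut inside or loses its cap, and exonucleases that digest from the 5' end leave one on each intermediate. The hexamer AATAAA, written here as DNA, is the usual polyadenylation signal, and the transcript is cut and polyadenylated a short way downstream of it.

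The strongest ends of both genes in lung lay at this hexamer. The tags below are the most frequent tags at ends to which the results return, 5' to 3' along the RNA, with AATAAA in capitals. Each is named by the distance of its 5' end from the first A of the hexamer, negative upstream.
Sftpc, end -8: cacaaaagAATAAAgcagcc
Sftpc, end 0: AATAAAgcagcctgattgga
Sftpc, end -1: gAATAAAgcagcctgattgg
Sftpc, end -89: agcaggaagctgctcctgcc
Sftpc, end -431: cgggagagacctggctttcc
Sftpb, end 0: AATAAAgaatgggaacatgg
Sftpb, end -8: ttgagaagAATAAAgaatgg
The Sftpc tags lie on chromosome 14 (minus strand) at 70920763 to 70920782, 70920755 to 70920774, 70920756 to 70920775, 70920844 to 70920863 and 70921186 to 70921205, in the order shown. The Sftpb tags lie on chromosome 6 (plus strand) at 72264345 to 72264364 and 72264337 to 72264356. No mm9 annotation was used, so exons and untranslated regions are described only as far as the tags show them. The hexamer was sought on the tag strand alone, within bases covered by tags.

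The libraries differed in depth, from 493121 unique tags in lung to 29213 in ovary, a 16.9-fold range. A count of 0 allows 3 tags, or 6.08 CPM (tags per 1000000 unique tags) in lung. The same limit was 18.5 CPM in kidney and 38.0 CPM in liver, and it was higher in the shallow libraries of spleen (69.9 CPM), brain (89.9 CPM) and ovary (102.7 CPM). The tissue labels were checked on marker genes that could be placed by matching tags to RefSeq promoter sequences (GRCm38.p6), which located 10 of 58. All 6 located genes of lung cell types were highest in lung, the 3 of kidney in kidney, and Inha, the inhibin alpha subunit, in ovary. Genes were located by tags of these same libraries, which favours genes with many tags in a deep library such as lung. The check on the labels is therefore weak. The listed markers of brain, liver, spleen and macrophages were not located. The kidney genes also gave tags in lung. Kap, a kidney androgen-regulated protein, had 2299 lung tags against 8753 kidney tags, or 4662 against 53941 CPM. Umod, which encodes uromodulin, had 89 against 411, or 180 against 2533 CPM. Gpx3 had 1245 against 2727, or 2525 against 16805 CPM.

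Sftpc tags made up 2.10% of the lung library. The level was 21003 CPM in lung (interval 20600.4 to 21411), from 10357 tags. It was 671 CPM in liver (53 tags, 503 to 878), 123 in kidney (20 tags, 75.3 to 190.4) and 119.8 in brain (4 tags, 32.6 to 307). Spleen had 93.2 CPM (4 tags, 25.4 to 239) and ovary 68.5 (2 tags, 8.29 to 247). Lung thus stood above every other library, liver was second, and the intervals of kidney, brain, spleen and ovary overlapped one another. The ratio of lung over liver was 31.3 (23.9 to 41.8), that over kidney 170.4 (110 to 279), over brain 175 (68.4 to 643) and over spleen 225 (88.0 to 828). Over ovary, with its 2 tags, it was 307 (84.9 to 2534). With each distinct end counted once, the Sftpc ratio was much smaller, 2.51 over liver (1.78 to 3.64), 14.9 over kidney, 13.5 over brain, 16.4 over spleen and 22.8 over ovary. Ends cannot outnumber the bases on offer, and the 10357 lung tags fell on 521 ends while the 53 liver tags fell on 35. The ratio by ends is thus held down by depth, which its interval does not cover, and is no second estimate of the level.

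Sftpb was also highest in lung and, by measured level, second in liver. Lung had 1704 tags, or 3456 CPM (3293 to 3624). Liver had 7 tags or 88.7 CPM (35.6 to 183), spleen 2 tags or 46.6 CPM (5.64 to 168), and kidney 5 tags or 30.8 CPM (10.005 to 71.9). No Sftpb tag was found in brain or ovary, whose limits of 89.9 and 102.7 CPM lie above the liver level, so the order of liver against them is not known. Lung exceeded liver 39.0-fold (18.9 to 97.1), spleen 74.2-fold (20.5 to 613) and kidney 112-fold (48.0 to 346). By distinct ends, whose number is bounded in the same way, these ratios were 11.6 (4.92 to 35.9), 16.2 (4.45 to 134) and 34.3 (13.3 to 127). With 3 tags put in place of the count of 0 in each library, lung was 38.5-fold above brain and 33.6-fold above ovary. The exact 95% intervals from the counts of 0 start lower, at 31.2 and 27.3. The intervals of liver, spleen and kidney overlapped. In whole tissue, fewer cells of a type and less RNA per cell cannot be told apart, and a tag count reflects decay intermediates as well as the amount of RNA.

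**Figure D1:**
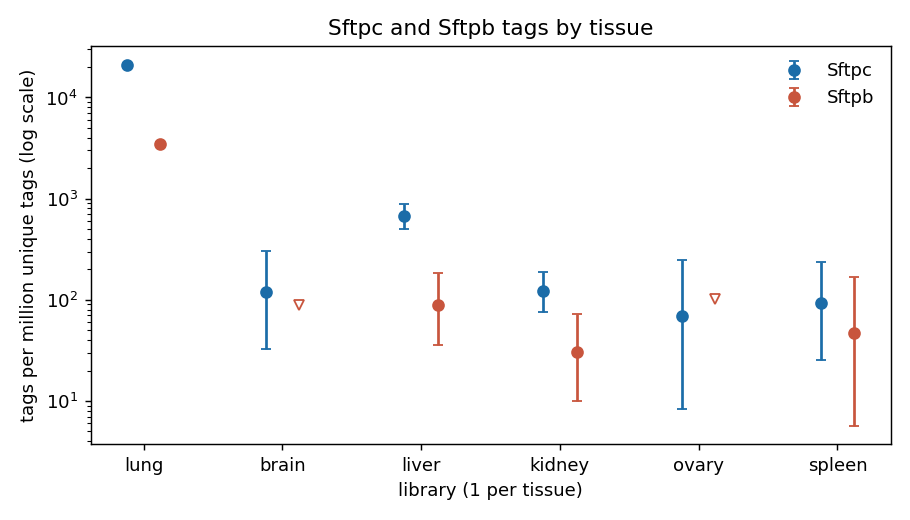
Tags per 1000000 unique tags (log scale) of Sftpc and Sftpb in the 6 libraries, with exact 95% Poisson intervals; open triangles mark the limit that a count of 0 allows. Lung is highest for both genes, at 21003 CPM for Sftpc and 3456 CPM for Sftpb. Liver is second for Sftpc; for Sftpb its interval overlaps those of spleen and kidney, and the limits of brain and ovary lie above its value.

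In lung, Sftpc had 6.08 times as many tags as Sftpb (5.77 to 6.40), a ratio of tag counts and not of RNA amounts. Per kilobase of bases covered by tags, Sftpc had 10194 lung tags over 1016 covered bases and Sftpb 864 over 1973, an 11.8-fold difference. Counting each distinct end once, the genes had 521 and 344 ends. In these counts the gap between the genes lay mostly in tags per end, 19.9 for Sftpc and 4.95 for Sftpb. Tags per end rise with depth, because ends cannot outnumber the bases.

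Windows of both intervals were among the few that stood far above the other libraries in lung, as their choice implies. Of 4038 strand-specific windows of 2 kb with at least 20 lung tags, 35 (0.867%) were at least 10-fold above the next highest library. Both Sftpc windows were among them, and 1 of the 2 Sftpb windows with enough tags, that from 72264001. In the other, from 72256001, 36 lung tags stood against 0 in every other library, too few for that fold over the limit of the ovary library. Just outside the Sftpc interval no lung tag fell within 2 kb on either side, against 9701 and 656 in its windows. Just outside the Sftpb interval there was 1 lung tag in the 2 kb before it, next to 3 in its first window, and 35 in the 2 kb after it, next to 1640 in its last window.

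Sftpc ends lay in 6 separate blocks of adjoining tags of at least 60 nt, and tag density was greatest at the 3' end. Block 1 (70923814 to 70923887) had 38 lung tags, block 2 (70922420 to 70922580) 345, block 3 (70921940 to 70922084) 295 and block 4 (70921612 to 70921722) 352. Block 5 (70921122 to 70921285) had 1712 and block 6 (70920747 to 70920965) 7608, or 73.5% of the lung tags (72.6 to 74.3). Per nucleotide these were 0.514, 2.14, 2.03, 3.17, 10.4 and 34.7 lung tags. Only 7 lung tags, 0.0676%, fell outside the blocks, although the gaps between them measured 1233, 335, 217, 326 and 156 nt. Tags that cross a splice junction do not align to the genome as 1 stretch, so ends within a tag's length of a junction are missed. Block boundaries are those of tag coverage and can differ from exon boundaries by a few bases.

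The sequence rebuilt from the tags allowed a reading frame to be placed. Each of blocks 1 to 4 had a single frame without a stop codon, and the longest open frame of block 5 ended at TAG at position 70921135, at -361 on the same scale of distance from the hexamer. Block 1 held the first ATG of its open frame at 70923850. Of the lung tags, 26.2% (25.4 to 27.1) began between that ATG and the stop, 0.261% (27 tags) upstream of the ATG, and 73.5% after the stop. All tags after the stop were in block 6, which follows the coding sequence as read here. The coding bases of the blocks carried 4.47 lung tags per nucleotide.

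Ribosomes move by codons, and in yeast decay that follows the last ribosome is known to leave ends in a single frame. Among 2715 lung tags in the coding part, 32.3% (30.5 to 34.1) began at codon position 1, 29.8% (28.1 to 31.6) at position 2 and 37.9% (36.1 to 39.8) at position 3. The 344 distinct ends divided as 118, 115 and 111. A single end moved the tag shares: end -431, at 70921205, held 261 tags, and without it position 3 had 31.3% (29.5 to 33.2). The larger share of position 3 thus rested on that end. The tags of Sftpb upstream of its hexamer block were too sparse for this reading.

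**Figure D2:**
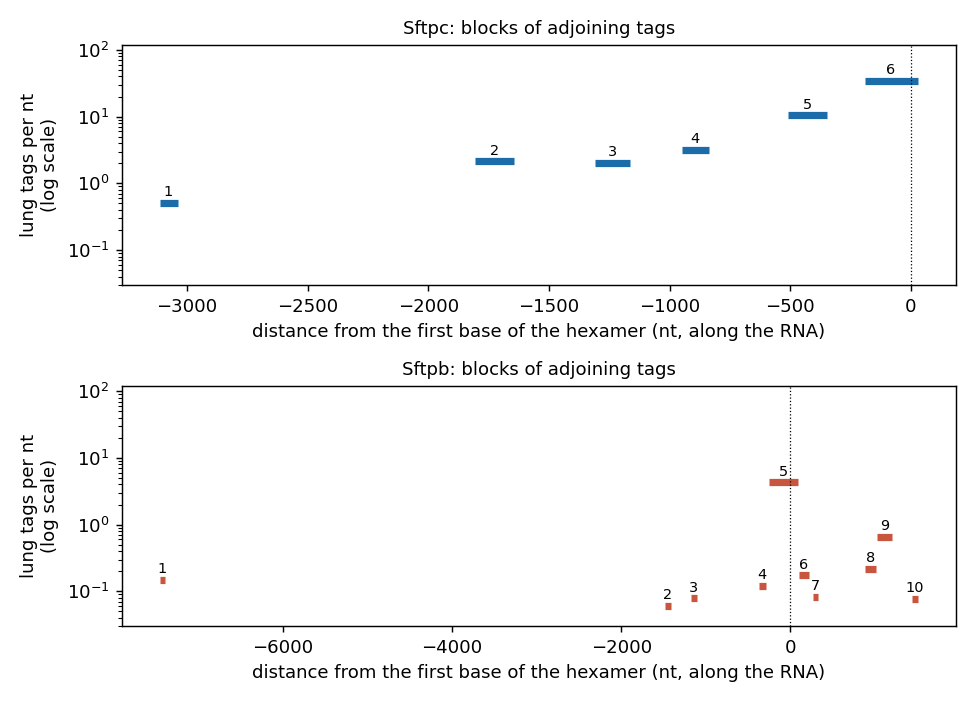
Lung tags per nucleotide (log scale) in each numbered block of adjoining tags of Sftpc and Sftpb, against distance along the RNA from the first base of the hexamer (dotted line). Sftpc density is 0.514 tags per nucleotide in block 1 and 34.7 in block 6; in Sftpb, block 5, which holds the hexamer, has 4.28.

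Sftpb ends were gathered more closely still. Block 5 of Sftpb, 336 nt from 72264097 to 72264432 around the hexamer, held 1438 of the 1704 lung tags (84.4%, 82.6 to 86.1). The interval upstream, over more than 10 kb, was thinly covered: only 71 lung tags (4.17%, 3.27 to 5.23) began more than 250 nt upstream of the hexamer, on 66 ends. For Sftpc that share was 26.5% (25.7 to 27.4), or 2749 tags on 362 ends. No tag in any library matched the sequence from 250 bases before to 50 after the RefSeq start of Sftpb.

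Within 20 nt of the first A of the hexamer lay 31.6% of the Sftpc lung tags (3276 tags, 30.7 to 32.5) and 62.6% of the Sftpb lung tags (1066 tags, 60.2 to 64.9). The intervals do not overlap, but they cover counting error only and each gene was measured in 1 lung library. The hexamer began at 70920774 in Sftpc and at 72264345 in Sftpb. In Sftpc it was the only AATAAA found. In Sftpb it was chosen because it had the most lung tags within 20 nt, against 39 for another AATAAA at 72265526. The Sftpb share is thus partly set by that choice. From 10 nt upstream of it to 2 nt inside it, Sftpc had 26.5% and Sftpb 56.1% of its lung tags.

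Both genes had many tags at the hexamer itself and again 8 nt upstream. In Sftpc the end at -8 was the strongest, with 501 lung tags (4.84%, 4.43 to 5.27). End 0, the first A, had 413, end -1 had 396, end -2 had 322 and end -9 had 265. In Sftpb the order was the other way round, with 286 tags at end 0 (16.8%, 15.0 to 18.6) and 93 each at ends -8 and -7. End -1 of Sftpb had 112 tags, end 2 had 106 and end 1 had 102.

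**Figure D3:**
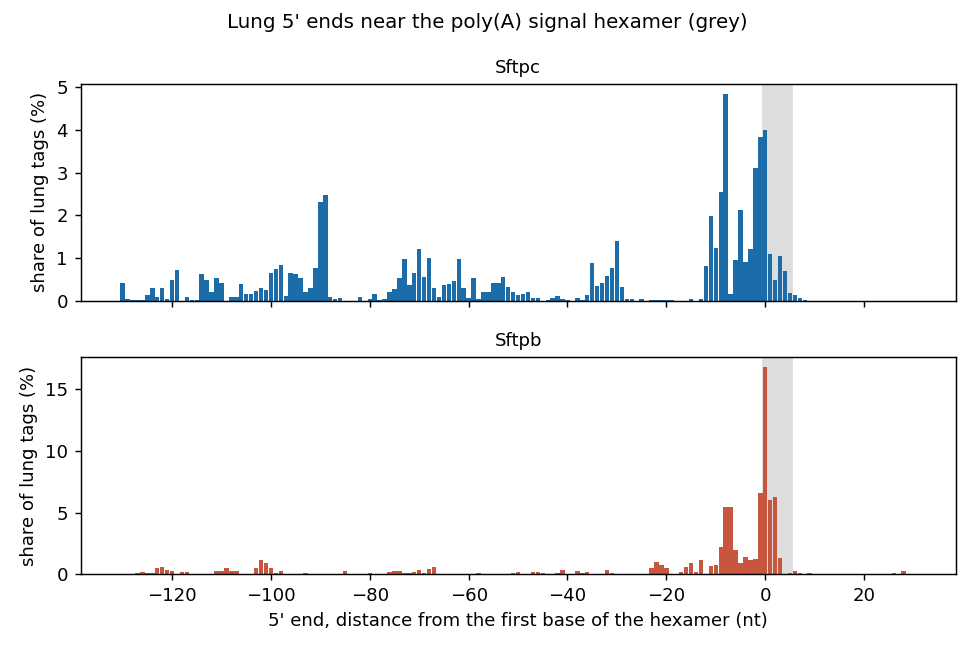
Share of each gene's lung tags (%) by 5' end, against distance from the first base of the hexamer (grey band). Sftpc peaks at -8 (4.84%) and 0 (3.99%) with a further group at -89 and -90; Sftpb peaks at 0 (16.8%) and -8 (5.46%). The gap at -7 in Sftpc comes from leaving out tags listed at 2 locations.

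A gap in the Sftpc profile is a product of the listing. At end -7 only 17 unique lung tags remained, but 232 further tags there were also listed on chromosome 4, which would bring the end to 249. With all listed tags kept, 33.4% of Sftpc tags (32.5 to 34.3) and 61.2% of Sftpb tags (58.8 to 63.5) lay within 20 nt of the hexamer.

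Downstream, the Sftpc ends stopped soon after the hexamer. The last lung end was at +8 (70920766), its tags reached base +27 at 70920747, and none of the 10357 lung tags began later, which allows a share of up to 0.0356%. An end closer to the polyadenylation site than the length of a tag would read into the poly(A) tail and would not align, so such ends are out of reach. Sftpb differed here, with 207 lung tags on 131 ends (12.1%, 10.6 to 13.8) more than 20 nt after the hexamer. Of these, 39 lay within 20 nt of another AATAAA in the interval, at 72265526, and the strongest end had 11 tags at 72265522. Their density was low, 0.656 tags per nucleotide in the block around that hexamer, and none of the other 5 libraries had a tag there. Whether these tags belong to RNAs that continue past the first hexamer or to another transcript was not tested.

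Tags that hold the hexamer were more frequent in both genes than in the rest of the lung library. Among tags of at least 20 nt, AATAAA stood within the first 20 bases in 27.7% of Sftpc tags (26.8 to 28.6), 47.4% of Sftpb tags (45.0 to 49.8) and 8.24% of all other lung tags (8.16 to 8.32). Counted once per tag sequence, the shares were 6.45%, 11.2% and 5.68%. By tags, the share outside both genes varied widely between the other libraries, from 2.26% in kidney to 38.2% in spleen. Of the tags holding it, 35.3% of Sftpb tags (32.0 to 38.7) began exactly with the hexamer, against 14.7% in the rest of the library (14.4 to 15.1), and for Sftpc the share was 14.3% (13.1 to 15.7). An excess of ends at the first A, relative to other lung tags with the hexamer, was thus present for Sftpb in tag counts and not for Sftpc. By tag sequence the shares beginning with it were 10.4% in Sftpc, 8% in Sftpb and 13.9% in the rest, so the Sftpb value came from many tags of few sequences.

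Upstream of the hexamer region, Sftpc had further strong ends and Sftpb had none among its 10 strongest. Ends -89 and -90 of Sftpc held 256 and 239 lung tags, and end -431, in the coding part, held 261. These were the sixth to the eighth strongest ends of Sftpc. All 10 strongest ends of Sftpb lay between -9 and +3.

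Neighbouring ends often ended at the same base. At end -1 of Sftpc 360 tags were 20 nt long and 36 were 21 nt, whereas at end -2 the numbers were 26 and 295, and the most frequent tags of both ended at 70920756. The same held at ends 0 and -1 of Sftpb, with 242 and 44 tags of 20 and 21 nt at end 0 and 4 and 108 at end -1, both closing at 72264364. Whether such neighbours are separate 5' ends was not tested, so positions are read here as good to about 1 nt. Adding the neighbours within 1 nt raises the strongest end to 7.56% of lung tags in Sftpc and 29.3% in Sftpb.

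Sftpc tags were spread more evenly over their ends than Sftpb tags. The 10 strongest ends gave 29.7% of Sftpc lung tags (28.8 to 30.6) and 53.4% of Sftpb lung tags (51.0 to 55.8). Among 185 other lung windows of 2 kb with at least 200 tags, the median was 40.7%, with 25.9% and 100% as the 10th and 90th percentiles. At least as concentrated as Sftpc were 76.8% of these windows, and 35.1% were at least as concentrated as Sftpb. The inverse of the summed squared shares gave 76.4 equally used ends for Sftpc, 20.4 for Sftpb and a median of 35.2 in the windows. Distinct ends numbered 521 for Sftpc, 344 for Sftpb and a median of 108 in the windows, so Sftpb too had many ends, of which 212 had 1 tag. The number of ends found depends on depth, which is larger for Sftpc, and the intervals of both genes are longer than 1 window.

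**Figure D4:**
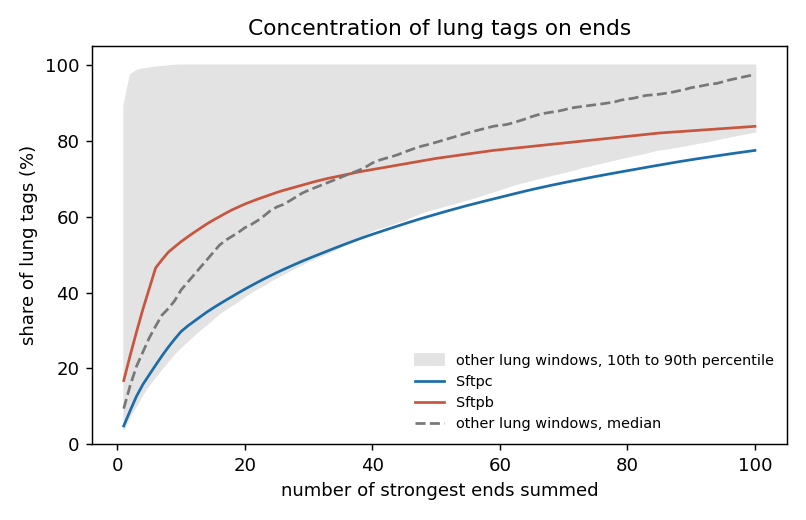
Cumulative share of lung tags (%) against the number of strongest ends summed, for Sftpc, Sftpb and 185 other lung windows with at least 200 tags (dashed median, grey 10th to 90th percentile). Sftpc runs along the lower edge of the grey range and below it at the right, with 29.7% at 10 ends, and Sftpb above the median there, with 53.4%.

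In the other 5 libraries, the few tags of both genes lay at ends also used in lung. All 83 Sftpc tags (100%, 95.7 to 100) on 46 ends did so, and 79 of them had a tag sequence found in lung as well. All 14 Sftpb tags did so too, 13 with a lung sequence. Lung used many of the bases on offer, 72.6% in Sftpc block 6, 69.5% in Sftpc block 5 and 45.8% in Sftpb block 5, so a high share is little informative. At lung ends with at least 10 tags, which took 48.9%, 31.7% and 7.14% of the bases of those blocks, lay 95.2% of the Sftpc tags (88.1 to 98.7) and 78.6% of the Sftpb tags (49.2 to 95.3). End -8 of Sftpc was found in 4 tissues, with 501 tags in lung, 1 in liver, 2 in kidney and 1 in spleen. A further 10 Sftpc ends and 2 Sftpb ends were found in 3 tissues. Of these, 8 of the 11 Sftpc ends and both Sftpb ends lay within 20 nt of the hexamer.

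The share of Sftpc tags at the hexamer was known outside lung only within wide limits. Within 20 nt of the hexamer lay 45.3% of liver tags (24 of 53, 31.6 to 59.6), 60.0% of kidney tags (12 of 20, 36.1 to 80.9) and 31.6% of lung tags. The kidney share has an interval wholly above that of lung, on 20 tags. For the 5 libraries together the share was 47.0% (39 of 83, 35.9 to 58.3). The liver interval, from 31.6%, reaches the lung share. Brain had 1 of 4 tags in this stretch (25%, 0.631 to 80.6), spleen 1 of 4 (25%, 0.631 to 80.6) and ovary 1 of 2. These intervals hold the lung share, so so few tags do not place brain or spleen above or below it. No Sftpc tag outside lung fell in blocks 1 and 2, where lung had 38 and 345 tags.

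**Figure D5:**
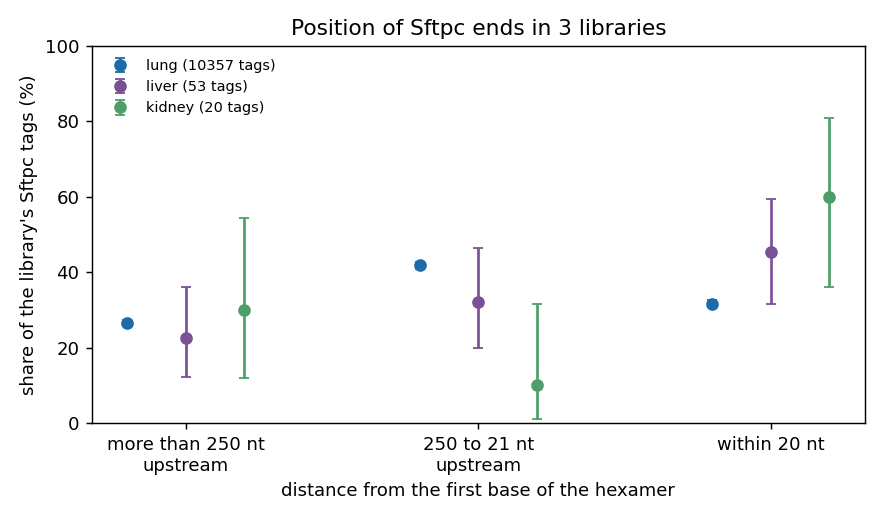
Share of each library's Sftpc tags (%) in 3 stretches by distance from the first base of the hexamer, with exact 95% binomial intervals, in lung (10357 tags), liver (53) and kidney (20). Within 20 nt the shares are 31.6%, 45.3% and 60.0%; between 250 and 21 nt upstream they are 41.8%, 32.1% and 10%.

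In liver, the numbers of tags relative to lung overlapped between both genes. For every 1000 lung tags, liver had 5.12 Sftpc tags (3.83 to 6.69) and 4.11 Sftpb tags (1.65 to 8.46), and kidney had 1.93 and 2.93. Spleen had 0.386 Sftpc tags and 1.17 Sftpb tags, while brain had 0.386 and 0, and ovary 0.193 and 0, all from 4 tags or fewer. The window with the most lung tags, on the minus strand of chromosome 19 from 9158001, gave 4.77 in liver (4.05 to 5.57) and 1.70 in kidney. Sftpa1 gave 5.81 in liver (2.90 to 10.4). Ager gave 9.41 in liver (4.51 to 17.3), Scgb3a1 6.54 (1.35 to 19.1) and Cldn5 11.8 (2.43 to 34.4), all with intervals that overlap that of Sftpc. Cyp2f2, a cytochrome P450 of club cells, gave 35.1 in liver (24.0 to 49.6), an interval above that of Sftpc. The tissue libraries were barcoded, and a transfer of tags between libraries or of tissue between samples was not tested.

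Other genes of the alveolar surfactant system could be set beside Sftpc and Sftpb only where they were located, 2 of 17 on the list. Sftpa1, which encodes the collectin surfactant protein A, had 1893 lung tags on 570 ends, or 3839 CPM in lung against 139 in liver, 23.3 in spleen, 6.16 in kidney and 0 in brain and ovary. Lung exceeded liver 27.6-fold (15.4 to 55.3). Its level in lung was near that of Sftpb, 3456 CPM, as tags per library and not per length. Unlike Sftpb, Sftpa1 had tags at its RefSeq start: 16 lung tags began exactly at that base, at 41945077 on the plus strand of chromosome 14. The most frequent of them, with 9 tags, is printed because it marks the start of the transcript.
Sftpa1, RefSeq start: gactcggaggcagacatcca
Lyz2, the lysozyme of type II cells and macrophages, had 146 lung tags, or 296 CPM in lung against 30.0 in brain, which came from 1 tag. Among markers of other lung cells, lung had 2156 CPM of Ager, a receptor abundant on type I cells, 931 of the club cell secretoglobin Scgb3a1 and 517 of the endothelial claudin Cldn5. Their part in the Sftpc and Sftpb tags was not tested.

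The windows most like each gene across the 6 libraries, judged by Pearson's r of log2(CPM + 1), were taken from 2566 windows with at least 50 tags. For Sftpc the closest was on the minus strand of chromosome 11 from 120590001 (r = 0.992), with 2230 lung tags, 17 in liver, 5 in kidney and 1 each in brain, ovary and spleen. It was followed by windows from 91230001 on chromosome 5 (r = 0.990), 43924001 on chromosome 18 (r = 0.987) and 25312001 and 153972001 on chromosome 2 (r = 0.980 each), all on the plus strand. For Sftpb the closest was on the plus strand of chromosome 18 from 35966001 (r = 0.987). It had 40 lung tags, 8 in kidney, 4 in liver, 2 in spleen and 1 each in brain and ovary, so lung stood little above the others for its depth. The second closest, from 41948001 on the plus strand of chromosome 14 (r = 0.986, 686 lung tags), lies inside the Sftpa1 span. The remaining windows, with 60 to 182 lung tags, began at 87500001 on chromosome 8, 10280001 on chromosome 16 and 115296001 on chromosome 4 (minus strand), with r between 0.965 and 0.977. No window was among the 5 of both genes. With 6 libraries, these correlations record little more than which libraries are higher, and not by how much.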

How the data were processed

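Bowtie and mm9 are named in the submitters' processing notes; version and settings are not stated there. Each deposited line holds a location, a tag sequence with its read count, and a display score that the authors describe as a browser density, which was not used. Read counts, other than the score, are the deposited measurement. Sequences on the minus strand were complemented, the 5' end was the first base of the tag, and sequences listed at 2 locations in a library were left out. Levels are counts per 1000000 unique tags.

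Python 3.11.15, numpy 2.4.6 and scipy 1.17.1 were used. Shares have Clopper-Pearson, levels Poisson and ratios conditional binomial intervals. For counts of 0 the limit was set at 3 tags. The planned match of tags to proteins had no protein table here, so the reading frame came from the rebuilt sequence. Marker genes were placed by exact matches of 20 nt to RefSeq promoters (GRCm38.p6), then counted over the RefSeq gene length from the matched start. Factors by a trimmed mean of M values were computed directly, since the deposited counts stand in a text column. These factors and window likeness were tested on simulated data. Named ends are the 5 strongest per gene, ends in at least 3 tissues and, chosen after their values were seen, ends -89, -90 and -431 of Sftpc; named windows are the 5 most alike. The members and lists were chosen with earlier results of these data known, and distances from the hexamer were added after seeing them.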

Additional observations from a re-analysis of the deposited data

Results flagged for a closer look

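Tags of the 2 intervals that were listed at a second location were not counted above. They numbered 270 in lung for Sftpc, of which 232 began at end -7 and were also listed at position 108457028 of chromosome 4, and 36 at end 5 and also on chromosome 8. For Sftpb they numbered 39 in lung, of which 18 began at end -116, 4 at -115, 7 at -114 and 5 at -113, all also listed on chromosome 7. In all 18 listed sequences the other location was on the opposite strand. The 2 kb after the Sftpb interval held 35 lung tags on the same strand, outside the region counted, and no tag of another library. No tag was listed on the opposite strand of either interval in any library.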

How the results depend on the processing

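Across 38 alternatives, 15 results stayed within the counting interval of the reported value and 23 did not. Some of these outcomes were fixed by the setting, so the tally is no measure of robustness. Scaling by library cannot change Sftpc over Sftpb within lung, and leaving out the strongest end can only lower a level. A level per distinct end has another unit than a level in tags. Sftpc in lung was 19399 CPM with all listed tags, 37079 after TMM scaling (trimmed mean of M values), 19987 without the strongest end, and 1923 per 1000000 distinct ends. Sftpb in lung was 3182, 6100.5, 2876 and 1269.6 under the same settings. By distinct ends, which cannot outnumber the bases, lung over liver was 2.51 for Sftpc and 11.6 for Sftpb, and Sftpc over Sftpb was 1.51. That last ratio was 6.95 without the strongest ends and, added after seeing the data, 11.8 per covered kilobase and 6.92 without Sftpb tags after the hexamer. With 20 nt tags only, the strongest end held 6.41% in Sftpc and 21.3% in Sftpb, and the 10 strongest 35.5% and 61.1%. With ends within 1 nt added, the strongest held 7.56% and 29.3%. The share at codon position 3 was 32.3% by distinct ends and 31.3% without the strongest coding end. Of Sftpc tags outside lung, 95.2% lay at lung ends with at least 10 tags. By measured level, lung stayed highest and liver second for both genes in these settings, though brain and ovary, with no Sftpb tag, have limits above liver. The codon position of Sftpb ends was not run. No paired analysis was possible because each tissue has 1 library. With 53 or fewer tags per gene outside lung, positions there are known only broadly.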

Other observations

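The first base of lung tags differed between both genes and the rest of the lung library. T began 21.4% of Sftpc tags (20.6 to 22.2), 26.1% of Sftpb tags (24.0 to 28.2) and 32.9% of all other lung tags (32.8 to 33.1). By distinct ends the shares were 21.5%, 22.4% and 33.8%, and T made up 21.7% of the covered Sftpc bases and 20.9% of the covered Sftpb bases. A began 35.3% of Sftpc tags and 42.6% of Sftpb tags, against 32.6% in the rest, but 25.3% and 30.8% of the distinct ends. G began 12.6% of Sftpc tags but 22.1% of its distinct ends, near its 26.2% of the covered bases, while the rest of the library had 9.99% and 9.97%. Tags of 21 nt made up 40.1% for Sftpc, 33.1% for Sftpb and 39.4% in the rest.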
